A study of Mus musculus with 18 samples.

Results

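The genes described here encode the machinery that positions lysosomes along microtubules and draws them out into tubules: the small GTPases Arl8a and Arl8b, the BORC subunit Borcs5, the adaptor Plekhm2, the kinesin heavy chains Kif5b and Kif1b, the Rab7-kinesin adaptor Fyco1, the tether Plekhm1, the Rab7-dynein adaptor Rilp and the dynein heavy chain Dync1h1. They were taken from a fixed list of gene symbols, without a filter on their values, and earlier results of these data were known when they were chosen. All 10 of the 10 listed genes were rows of the count table, which held 11243 protein-coding genes. Borcs5 was present under its older symbol Loh12cr1, and the other 9 under the listed symbol. The libraries came from RAW264.7, a transformed mouse macrophage line, in 3 treatments. Control cells received vehicle (DMSO), LPS cells 500 ng/mL LPS from Salmonella for 6 h, and cells of the remaining group received torin1, which blocks the kinase mTOR, at 100 nM from 15 min before the same LPS. Each treatment was made in 3 independent experiments. Each of the 9 lysates was sequenced as total mRNA and as polysome-associated mRNA, the pooled heavy fractions of a sucrose gradient, which makes 18 libraries. No library with torin1 and without LPS was analysed here, so an effect of torin1 on its own cannot be told apart from an effect on the LPS response.

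Lysosomes travel in both directions on microtubules. For outward movement, the BORC complex recruits Arl8 to the lysosomal membrane, active Arl8 binds the adaptor Plekhm2 (also known as SKIP), and Plekhm2 couples the organelle to the kinesin Kif5b. Kif1b is a kinesin of another family that Arl8 can also engage, and Fyco1 links Rab7-positive late endosomes to kinesin. For inward movement, Rab7 binds Rilp, which recruits dynactin and the dynein motor built on Dync1h1. Plekhm1 binds both Rab7 and Arl8 and tethers lysosomes to their fusion partners. In macrophages stimulated with LPS, lysosomes change from round bodies into tubules that extend along microtubules, and Arl8b and its kinesin partners are known for their part in this change.

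Library totals over the genes of the table ran from 27800983 to 47725557 counts. All 8 macrophage markers examined were in the table, none of the 17 markers of T cells, B cells, fibroblasts or epithelium was, and the LPS-induced genes Il1b, Tnf and Ptgs2 were higher with LPS in total mRNA by 9.85, 3.21 and 6.38 on the log2 scale. Il6 and Nos2, also listed as LPS-induced genes, were not rows of the table and could not be checked. The table holds only genes with at least 1 count in every library, so a gene that is not a row was not counted as absent from the cells. In bulk libraries such as these, fewer cells with a transcript and less transcript per cell cannot be told apart. Levels are given below as CPM, the usual per-library scaling of counts, with edgeR's TMM factors over the 18 libraries, and always in the order of experiments 1, 2 and 3. Differences are log2 fold changes with their standard error (SE) from edgeR's quasi-likelihood test, and the Benjamini-Hochberg adjustment of its p-values took in all 11243 genes. A gene is said to be called, or to have risen or fallen, where the adjusted p was at most 0.25, the false discovery rate that the study set. A stricter level of 0.05 is named where it matters. The total and polysome-associated libraries of a lysate share their cells, and the comparison of LPS with control shares its LPS libraries with that of torin1 and LPS against LPS, so neither pair of comparisons is independent.

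Stretches upstream of 3 of the genes are shown because these genes had the 3 largest differences with torin1 among the members: Arl8a rose with LPS and again with torin1, while Plekhm1 and Rilp fell with LPS and were higher with torin1 than with LPS alone. The sequences are from RefSeq on GRCm38.p6, read 5′ to 3′ on the gene's strand, and each holds the 120 bases just before RefSeq's transcription start. The Arl8a stretch is chr1:135146714-135146833 on the plus strand, the Plekhm1 stretch chr11:103412706-103412825 on the minus strand and the Rilp stretch chr11:75509974-75510093 on the plus strand. Capitals mark each GC box, the letters GGGCGG on either strand.
Arl8a: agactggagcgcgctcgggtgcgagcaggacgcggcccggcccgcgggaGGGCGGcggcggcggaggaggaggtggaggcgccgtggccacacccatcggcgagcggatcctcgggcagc
Plekhm1: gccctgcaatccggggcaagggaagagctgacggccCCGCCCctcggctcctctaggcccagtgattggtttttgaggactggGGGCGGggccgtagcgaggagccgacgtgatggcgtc
Rilp: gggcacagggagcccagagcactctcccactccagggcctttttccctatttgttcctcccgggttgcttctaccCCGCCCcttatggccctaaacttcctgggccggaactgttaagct
Of the 10 genes, 8 had at least 1 promoter in the RefSeq table, 11 promoters in all, each from 250 bases before the start to 50 after it. Arl8b and Kif5b were not among them. A GC box lay in a promoter of Arl8a, Borcs5, Plekhm1, Plekhm2, Kif1b, Rilp and Dync1h1 and in none of Fyco1. By promoter this was 8 of the 11, against 35.7% of all 32851 promoters. The windows of Kif1b overlap each other and share GC boxes, and those of Fyco1 overlap too, so the 11 are not separate stretches. The E-box CACGTG, which the TFEB family of lysosomal transcription factors can bind, the related CATGTG and the AP-1 site TGACTCA were searched on both strands. They were found in none of the 11 promoters, against 7.15%, 14.2% and 5.2% of all promoters. A match is a description of letters in this window only. Plekhm1 held 2 GC boxes in its window and Rilp 1.

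In resting cells the 10 mRNAs covered a wide range of levels. Per kilobase of exon, total mRNA of Arl8b was the most abundant, with 58.2 ± 4.14 CPM per kb (mean ± SD, n = 3), followed by Kif5b with 36.6 ± 1.52 CPM per kb, Plekhm1 with 25.8 ± 3.3 and Dync1h1 with 24.7 ± 6.53. The libraries of Plekhm1 and Dync1h1 overlapped, and those of the other neighbours in this order did not. Arl8a followed with 16.6 ± 1.31 CPM per kb, and Plekhm2, Kif1b, Fyco1 and Borcs5 lay between 9.09 ± 0.633 and 2.24 ± 0.19. Rilp was the lowest, with 0.609 ± 0.111 CPM per kb, and had between 9 and 86 counts in a library. The order changed with the treatment. With LPS and torin1, Dync1h1 reached 69.1 ± 13.1 CPM per kb in total mRNA and overlapped Arl8b at 62.7 ± 1.18, and Arl8a came next with 48.3 ± 1.43. In polysome-associated mRNA of the same cells, Arl8a was the most abundant of the 10 with 74.2 ± 2.12 CPM per kb, above every library of Arl8b (53.4 ± 12.4). These levels rest on the union of annotated exons as the length, so a gene with long unused exons appears lower than it is.

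**Figure D1:**
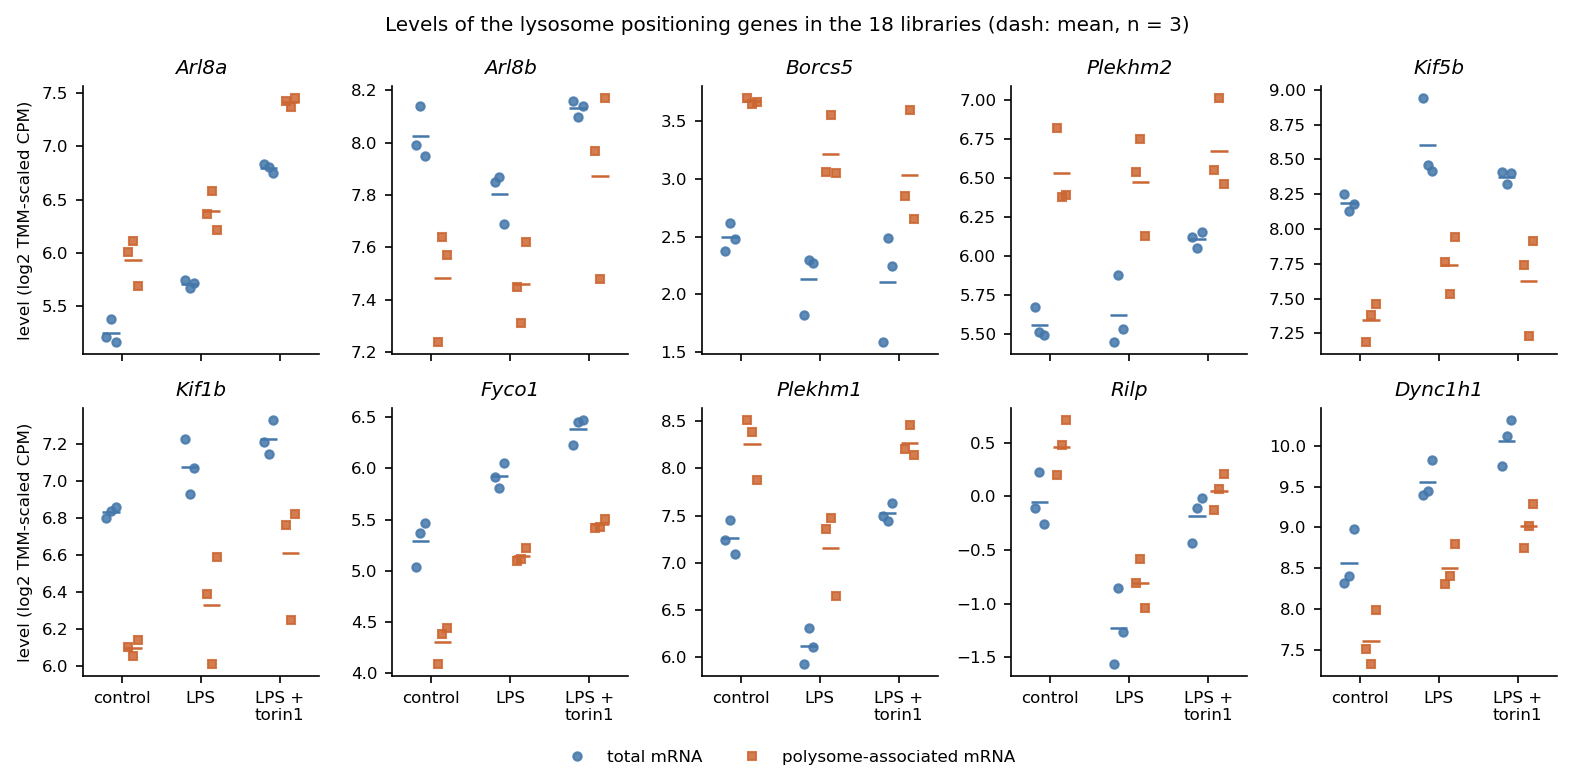
Level of each of the 10 genes (log2 TMM-scaled CPM, with its own axis range in each panel) in the 18 libraries, by treatment. Circles are total mRNA, squares polysome-associated mRNA and dashes the mean of 3 experiments. Arl8a, Kif1b, Fyco1 and Dync1h1 climb from control to LPS to LPS with torin1 in their means of both RNA types. Groups of Kif1b and Dync1h1 overlap in part. Plekhm1 and Rilp are lowest with LPS.

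The first comparison asked how the machinery changed after 6 h of LPS. In total mRNA, Arl8a, Kif5b, Kif1b, Fyco1 and Dync1h1 rose (Kif1b with the opposite sign, and Arl8a and Kif5b without a call, under library totals alone) and Arl8b, Borcs5, Plekhm1 and Rilp fell, so that 5 of the 10 genes were called higher and 4 lower. Over all genes, 32.2% were called higher and 34.3% lower. In polysome-associated mRNA, 4 genes were called higher and 3 lower, against 26.4% and 28.7% of all genes. The median log2 fold change of the 10 genes was 0.16 in total and 0.11 in polysome-associated mRNA, beside −0.02 and −0.03 over all genes. The groups did not overlap for 9 of the 10 genes in total mRNA, against 53.9% of all genes, and for 7 in polysome-associated mRNA, against 46.2%. The list therefore had no shared direction with LPS.

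The Arl8 paralogues moved in opposite directions with LPS in total mRNA only. Arl8a (chromosome 1 of GRCm38, 135146824 to 135156269, plus strand) had 37.1, 41.6 and 35.9 CPM in total mRNA of control cells, 53.9, 50.8 and 52.6 CPM with LPS, and 113.7, 112.2 and 107.4 CPM with LPS and torin1. In polysome-associated mRNA it had 64.3, 68.9 and 51.5 CPM in resting control cells, 82.7, 95.6 and 74.5 CPM with LPS, and 171.5, 165.3 and 174.9 CPM with LPS and torin1. The 3 groups did not overlap in either RNA type, with LPS and torin1 the highest. With LPS, Arl8a had a log2 fold change of 0.46 (SE 0.09, adjusted p = 0.00202, edgeR) in total mRNA. Its polysome-associated value was 0.45 (SE 0.16, adjusted p = 0.046, edgeR), with the same direction in all 3 experiments. Arl8b (chromosome 6, 108783099 to 108825278, plus strand) had 254, 282 and 247 CPM in total mRNA of control cells, 231, 233 and 207 CPM with LPS, and 285, 275 and 283 CPM with LPS and torin1. Its LPS libraries lay below both other groups. In polysome-associated mRNA its groups overlapped, with 151, 199 and 191 CPM in resting control cells, 174, 159 and 197 CPM with LPS, and 251, 179 and 288 CPM with LPS and torin1. The log2 fold change of Arl8b with LPS was −0.22 (SE 0.1, adjusted p = 0.0825, edgeR) in total mRNA. On polysomes it was −0.03 (SE 0.19, adjusted p = 0.918, edgeR), where the 95% interval of −0.45 to 0.39 leaves a change of either sign possible. Without experiment 3 the fall of Arl8b in total mRNA was no longer called (−0.21, adjusted p = 0.279, edgeR).

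Set against each other per kilobase of exon, Arl8b exceeded Arl8a in total mRNA of control cells by a ratio of 3.51 ± 0.0252 (mean ± SD, n = 3). LPS cells had a ratio of 2.19 ± 0.17 and cells with torin1 as well 1.3 ± 0.0458, without overlap between the 3 groups. In polysome-associated mRNA control cells had 1.53 ± 0.348, LPS cells 1.1 ± 0.253 and LPS with torin1 0.717 ± 0.147. There the control and LPS libraries overlapped, from 1.21 to 1.9 and from 0.855 to 1.36. Every polysome-associated library with LPS and torin1 had a ratio below 1, between 0.556 and 0.844, while every total library was above 1. A ratio within a library does not depend on how the library was scaled. Its position against 1 does depend on the annotated exon lengths, 4479 bases for Arl8b and 2299 for Arl8a. In CPM without lengths, Arl8b was above Arl8a in these polysome-associated libraries with LPS and torin1 too (251, 179 and 288 against 171.5, 165.3 and 174.9). The ratio describes levels of 2 genes whose own differences are tested above and was not tested separately.

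**Figure D2:**
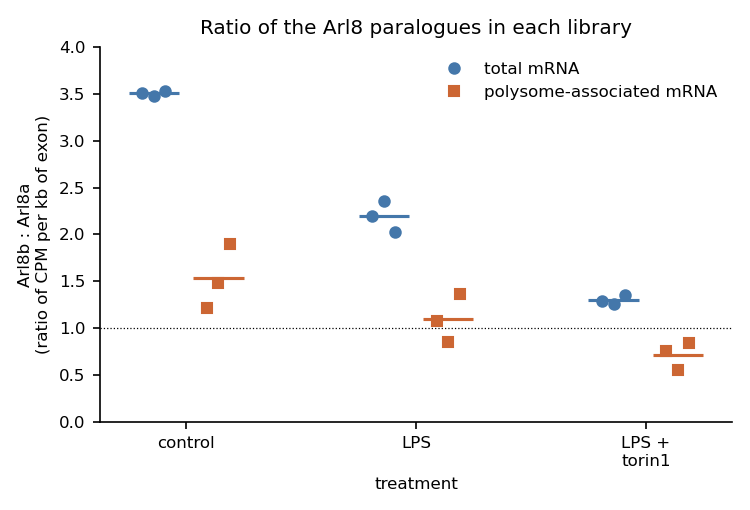
Ratio of Arl8b to Arl8a (CPM per kb of exon, linear axis from 0) in each library, by treatment. Circles are total mRNA, squares polysome-associated mRNA and dashes means of 3 experiments. The total mRNA ratio steps down from 3.51 in control cells to 1.3 with LPS and torin1, and the polysome-associated ratio ends below 1 (dotted line). Where a ratio lies against 1 depends on the annotated exon lengths.

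Borcs5 (chromosome 6, 134639510 to 134711187, plus strand), the BORC subunit anchored in the lysosomal membrane, was weakly expressed. It had 5.17, 6.12 and 5.57 CPM in total mRNA of control cells against 3.53, 4.9 and 4.79 CPM with LPS, and 13, 12.6 and 12.7 CPM in polysome-associated mRNA of control cells against 8.3, 11.7 and 8.28 CPM with LPS. Every LPS library was below every control library in both RNA types. The log2 fold change was −0.35 (SE 0.23, adjusted p = 0.25, edgeR) in total mRNA, which is at the threshold itself, and −0.43 (SE 0.26, adjusted p = 0.238, edgeR) in polysome-associated mRNA. Both 95% intervals included 0. The call in total mRNA was lost without any one of the experiments (adjusted p of 0.339, 0.342 and 0.399 for experiments 1, 2 and 3, edgeR) and under DESeq2 (0.288). That in polysome-associated mRNA was lost without experiment 1 (0.634) or experiment 3 (0.543) and under DESeq2 (0.257).

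On the kinesin arm, the adaptor Plekhm2 (chromosome 4, 141625734 to 141664899, minus strand) was not called with LPS in either RNA type. Its total mRNA was 50.9, 45.6 and 44.9 CPM in control cells against 43.7, 58.8 and 46.2 CPM with LPS, a log2 fold change of 0.07 with a 95% interval of −0.19 to 0.34. Its polysome-associated mRNA averaged 93.4 ± 16.9 CPM (SD, n = 3) in control cells, where experiments 2 and 3 had 83.3 and 84.0 and experiment 1 more, and was 92.8, 107.8 and 69.9 CPM with LPS. The log2 fold change was −0.05 with an interval of −0.53 to 0.43. The groups overlapped in both RNA types. In total mRNA, Plekhm2 was called higher when experiment 1 was left out (0.23, adjusted p = 0.236, edgeR). Kif5b, the kinesin heavy chain that Plekhm2 engages, had 305, 281 and 290 CPM in total mRNA of control cells and 492, 353 and 342 CPM with LPS. In polysome-associated mRNA it had 146, 167 and 177 CPM and 216, 185 and 246 CPM. Its groups did not overlap in either RNA type, and experiment 1 was the highest LPS library of total mRNA. The log2 fold change of Kif5b was 0.44 (SE 0.14, adjusted p = 0.024, edgeR) in total mRNA and 0.4 (SE 0.19, adjusted p = 0.126, edgeR) in polysome-associated mRNA. The latter call was lost without experiment 1 (adjusted p = 0.494, edgeR) or experiment 3 (adjusted p = 0.37, edgeR). Kif1b (chromosome 4, 149176319 to 149307693, minus strand) had 111.1, 114.8 and 116.5 CPM in total mRNA of control cells against 150.1, 121.6 and 134.4 CPM with LPS. Its log2 fold change there was 0.25 (SE 0.1, adjusted p = 0.0745, edgeR), and it turned to −0.12 under library totals alone and was no longer called without experiment 1 (adjusted p = 0.339, edgeR). In polysome-associated mRNA its groups overlapped, with 68.6, 66.5 and 70.7 CPM in control cells against 83.9, 64.6 and 96.1 CPM with LPS, and the log2 fold change of 0.25 was not called (SE 0.18, adjusted p = 0.334, edgeR). With the experiment as a replicate block it was called (0.23, adjusted p = 0.202, edgeR), and so it was without experiment 2 (0.36, adjusted p = 0.0781, edgeR).

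Fyco1 (chromosome 9, 123789500 to 123851899, minus strand) rose more clearly. Its total mRNA was 32.9, 41.4 and 44.2 CPM in resting control cells, 60.6, 56.1 and 66.4 CPM with LPS, and 75, 87.2 and 88.8 CPM with LPS and torin1. Its polysome-associated mRNA was 17, 20.7 and 21.7 CPM, then 34.2, 34.6 and 37.3 CPM, then 42.8, 43.1 and 45.7 CPM in the same order of treatments. The 3 groups did not overlap in either RNA type. With LPS, Fyco1 had a log2 fold change of 0.63 (SE 0.13, adjusted p = 0.00256, edgeR) in total and 0.83 (SE 0.14, adjusted p = 0.00126, edgeR) in polysome-associated mRNA.

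Plekhm1 and Rilp, both adaptors of Rab7, had the largest falls of the 10 genes. Plekhm1 (chromosome 11, 103364275 to 103412687, minus strand) had 150.7, 174.9 and 135.9 CPM in total mRNA of control cells, 60.7, 79.2 and 68.9 CPM with LPS, and 181.5, 173.4 and 198.2 CPM with LPS and torin1. In polysome-associated mRNA it had 363.4, 334.5 and 235.4 CPM in resting control cells, 164.8, 176.7 and 100.6 CPM with LPS, and 296.7, 351.0 and 281.4 CPM with LPS and torin1. In both RNA types the LPS libraries lay below both other groups, and the control and torin1 libraries overlapped. With LPS, the log2 fold change of Plekhm1 was −1.14 (SE 0.13, adjusted p = 6.37e-05, edgeR) in total and −1.08 (SE 0.24, adjusted p = 0.00614, edgeR) in polysome-associated mRNA. Rilp (chromosome 11, 75510094 to 75513168, plus strand) was counted by 30, 51 and 28 reads in total mRNA of control cells, 9, 18 and 13 reads with LPS, and 22, 27 and 28 reads with LPS and torin1. In polysome-associated mRNA it had 50, 61 and 86 reads in control cells, 17, 26 and 18 reads with LPS, and 35, 41 and 52 reads with LPS and torin1. Scaled to CPM, the total mRNA of Rilp ran from 0.821 to 1.16 in control cells, from 0.32 to 0.541 with LPS, and from 0.725 to 0.977 with torin1 as well. The LPS libraries were the lowest in both RNA types. The log2 fold change of Rilp with LPS was −1.18 (SE 0.3, adjusted p = 0.00866, edgeR) in total and −1.3 (SE 0.29, adjusted p = 0.00647, edgeR) in polysome-associated mRNA. At such counts the SE was the largest among the 10 genes in both.

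The dynein heavy chain had the largest rise. Dync1h1 (chromosome 12, 110601452 to 110666945, plus strand) had 319, 338 and 505 CPM in total mRNA of control cells, 675, 699 and 904 CPM with LPS, and 864, 1110 and 1272 CPM with LPS and torin1. Its polysome-associated mRNA was 182, 161 and 253 CPM, then 317, 337 and 446 CPM, then 429, 520 and 623 CPM. Control libraries lay below both other treatments in both RNA types. Experiment 3 was the highest library of its group in all 6 groups. With LPS, Dync1h1 had a log2 fold change of 0.97 (SE 0.21, adjusted p = 0.00319, edgeR) in total and 0.88 (SE 0.22, adjusted p = 0.0106, edgeR) in polysome-associated mRNA. The 2 genes of the dynein arm thus differed in direction, with the adaptor Rilp lower and the motor Dync1h1 higher.

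The size of these LPS values depended on the scaling of the libraries. Scaled by library totals alone, without TMM, the median of all genes between LPS and control moved by −0.37 in total and by −0.35 in polysome-associated mRNA, and the 10 genes moved by the same amount to within 0.01. Over all genes, the calls went from 3616 higher and 3855 lower to 1722 and 6966 in total mRNA, and from 2965 and 3226 to 1539 and 6101 in polysome-associated mRNA. They were then 2 higher and 5 lower among the 10 genes in both RNA types, and Arl8a (0.09 in total and 0.1 in polysome-associated mRNA) and Kif5b (0.07 and 0.05) were no longer called. Kif1b had −0.12 and −0.11, so that its direction flipped, and Plekhm2 had −0.29 and −0.4. The falls of Plekhm1 and Rilp and the rises of Fyco1 and Dync1h1 were called under each scaling. Annotated antisense genes overlap exons of Plekhm1, Kif5b and Dync1h1, and another annotated gene on the same strand overlaps exons of Fyco1. Whether exons of those other genes lie in the overlap was not examined. The library kit marks strand, but the strand setting of the counting was not stated, so reads in those overlaps are uncertain.

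The second comparison asked what torin1 changed in cells that also received LPS. In total mRNA, 7 of the 10 genes were called higher with LPS and torin1 than with LPS alone (Arl8a, Arl8b, Plekhm1, Plekhm2, Fyco1, Rilp and Dync1h1) and 1 lower (Kif5b), against 27.3% and 26.4% of all genes. In polysome-associated mRNA, 6 were called higher and 0 lower, against 20.3% and 18.2% of all genes. The 6 were those of total mRNA other than Plekhm2. The median log2 fold change of the 10 genes was 0.46 in total and 0.4 in polysome-associated mRNA, beside 0 over all genes in both. In polysome-associated mRNA, 8 of the 10 genes were higher in all 3 experiments and 1 (Kif5b) was lower in all 3, against 32.8% and 37.5% of all genes. The groups did not overlap for 4 of the 10, against 32.6% of all genes.

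The largest differences were those of Plekhm1 and Arl8a. Plekhm1 was higher with torin1 by 1.41 on the log2 scale (SE 0.13, adjusted p = 0.000141, edgeR) in total and by 1.09 (SE 0.24, adjusted p = 0.0147, edgeR) in polysome-associated mRNA. Arl8a was higher by 1.08 (SE 0.09, adjusted p = 8.14e-05, edgeR) and by 1.04 (SE 0.16, adjusted p = 0.00267, edgeR). Both were higher in all 3 experiments and remained called at an adjusted p of 0.05 in both RNA types. Rilp was higher by 1.03 (SE 0.31, adjusted p = 0.0305, edgeR) in total and 0.89 (SE 0.3, adjusted p = 0.071, edgeR) in polysome-associated mRNA, on counts of at most 52 with torin1. Its polysome-associated call was lost without experiment 3 (0.71, adjusted p = 0.492, edgeR). Plekhm1 and Rilp had fallen with LPS, whereas Arl8a had risen, and all of these comparisons use the same LPS libraries.

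Among the others, Arl8b was higher by 0.33 (SE 0.1, adjusted p = 0.0268, edgeR) in total and 0.46 (SE 0.19, adjusted p = 0.133, edgeR) in polysome-associated mRNA. Fyco1 was higher by 0.46 (SE 0.13, adjusted p = 0.0226, edgeR) and 0.34 (SE 0.14, adjusted p = 0.136, edgeR), and Dync1h1 by 0.51 (SE 0.2, adjusted p = 0.0862, edgeR) and 0.54 (SE 0.22, adjusted p = 0.124, edgeR). The Dync1h1 groups overlapped in both RNA types, while within each experiment the torin1 library was the higher. Plekhm2, at 69.4, 66.1 and 70.9 CPM in total mRNA with torin1, was above every LPS library, with a log2 fold change of 0.47 (SE 0.12, adjusted p = 0.0145, edgeR). In polysome-associated mRNA it had 93.4, 128.9 and 87.8 CPM with torin1, overlapping LPS, and a log2 fold change of 0.22 with a 95% interval of −0.26 to 0.71 that was not called. Leaving out an experiment ended several of these polysome-associated calls. Arl8b was not called without experiment 1 (adjusted p = 0.454, edgeR) or experiment 3 (0.508), nor was Fyco1 (0.396 and 0.493) or Dync1h1 (0.339 and 0.278). In total mRNA, Dync1h1 was not called without experiment 2 (0.44, adjusted p = 0.307, edgeR).

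Kif5b, Kif1b and Borcs5 were not called higher. Kif5b had 340, 319 and 338 CPM in total mRNA with torin1, below every LPS library, with a log2 fold change of −0.25 (SE 0.14, adjusted p = 0.193, edgeR). That call was lost without any one of the experiments, and the value was −0.08 (adjusted p = 0.63, edgeR) without experiment 1, whose LPS library was the highest. In polysome-associated mRNA Kif5b had 214, 150 and 241 CPM with torin1 and a log2 fold change of −0.07 (95% interval −0.49 to 0.34, adjusted p = 0.825, edgeR). Kif1b, at 148.4, 142.1 and 161.3 CPM in total and 108.1, 76.0 and 113.3 CPM in polysome-associated mRNA with torin1, was not called, with 0.15 (SE 0.1, adjusted p = 0.289, edgeR) and 0.31 (SE 0.18, adjusted p = 0.29, edgeR). With the experiment as a replicate block Kif1b was called higher in both (0.16, adjusted p = 0.183, and 0.3, adjusted p = 0.126, edgeR). It was also called without experiment 1 in total (0.24, adjusted p = 0.2, edgeR) and without experiment 2 in polysome-associated mRNA (0.32, adjusted p = 0.154, edgeR). Borcs5, at 3, 5.59 and 4.75 CPM in total and 7.21, 12.1 and 6.24 CPM in polysome-associated mRNA, stood at 0.01 (95% interval −0.52 to 0.54) and −0.12 (−0.7 to 0.46). Library totals alone moved the median of all genes by 0.07 and 0.06 in this comparison and ended the call of Kif5b in total mRNA (−0.18, adjusted p = 0.329, edgeR).

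**Figure D3:**
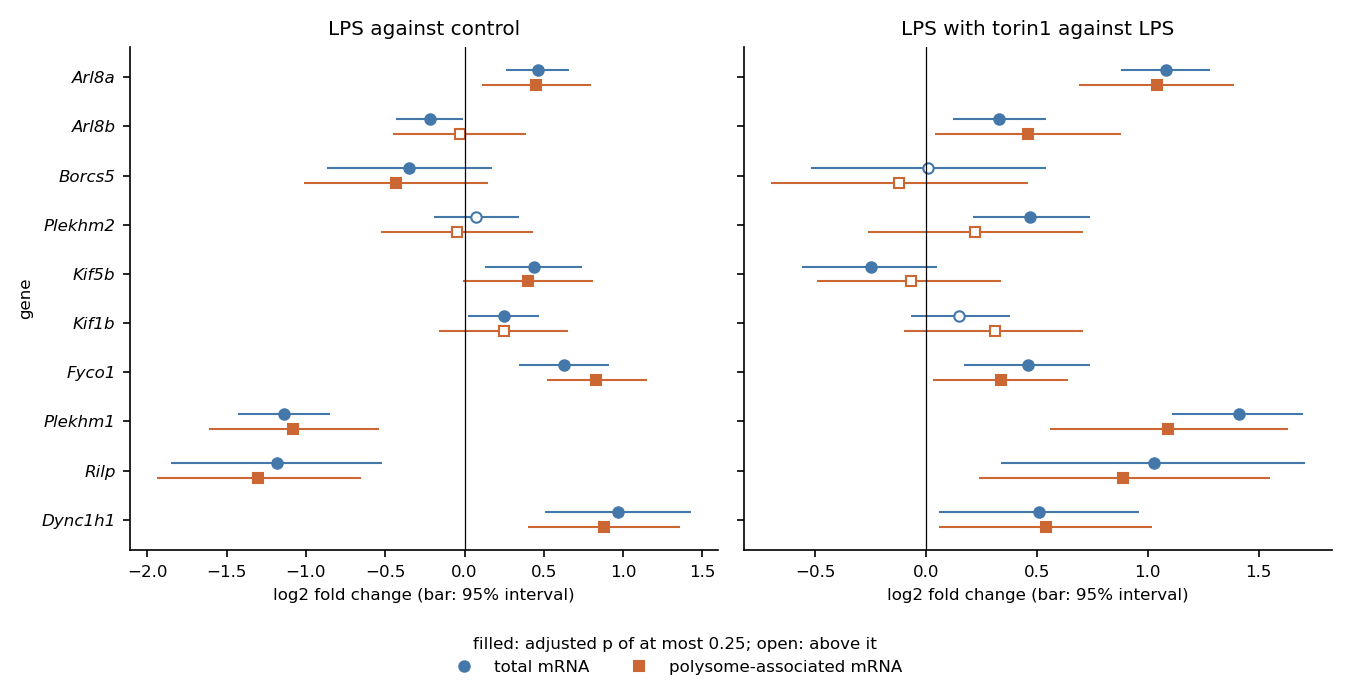
Log2 fold changes of the 10 genes with 95% intervals from edgeR's quasi-likelihood test, LPS against control on the left and LPS with torin1 against LPS on the right, with circles for total and squares for polysome-associated mRNA. Filled points had an adjusted p of at most 0.25. Plekhm1 and Rilp lie between −1.3 and −1.08 on the left and between 0.89 and 1.41 on the right, and Arl8a, Kif1b, Fyco1 and Dync1h1 lie to the right of 0 in both panels, with only 1 of the 4 points of Kif1b filled. The LPS libraries enter both panels.

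The cells with LPS and torin1 were also set against control cells. In total mRNA, 6 of the 10 genes were called higher and 0 lower, against 33.1% and 33.6% of all genes, and in polysome-associated mRNA 6 were called higher and 1 lower, against 28.5% and 29.7%. Arl8a differed most, by 1.54 (SE 0.09, adjusted p = 9.08e-07, edgeR) in total and 1.49 (SE 0.16, adjusted p = 6.15e-05, edgeR) in polysome-associated mRNA. Dync1h1 followed with 1.48 (SE 0.21, adjusted p = 0.000235, edgeR) and 1.42 (SE 0.22, adjusted p = 0.000674, edgeR), and Fyco1 with 1.08 (SE 0.13, adjusted p = 7.84e-05, edgeR) and 1.17 (SE 0.14, adjusted p = 0.000143, edgeR). These 3 genes had moved in the same direction in each of the earlier comparisons, and no library with torin1 overlapped control. Kif1b was higher by 0.4 (adjusted p = 0.00875, edgeR) and 0.55 (adjusted p = 0.0371, edgeR), though not without experiment 1 in polysome-associated mRNA (0.49, adjusted p = 0.261, edgeR). Plekhm2 was higher in total mRNA by 0.55 (SE 0.12, adjusted p = 0.00349, edgeR) and had 0.17 (95% interval −0.31 to 0.66) in polysome-associated mRNA.

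Plekhm1 and Rilp, which LPS had lowered, overlapped control in both RNA types. Plekhm1 differed from control by 0.26 in total mRNA (SE 0.13, adjusted p = 0.121, edgeR), which turned to −0.04 under library totals alone and was not called without experiment 3 (0.12, adjusted p = 0.623, edgeR), and by 0.02 (95% interval −0.51 to 0.54) in polysome-associated mRNA. Rilp had −0.16 (−0.78 to 0.47) and −0.4 (−1.02 to 0.21), neither of which was called, although the latter was with the replicate block (adjusted p = 0.229, edgeR). Intervals of this width do not show that control levels were reached. Arl8b was called higher in polysome-associated mRNA only (0.43, adjusted p = 0.102, edgeR), and not without experiment 1 (adjusted p = 0.503, edgeR) or experiment 3 (adjusted p = 0.43, edgeR). Its total mRNA had 0.11 (95% interval −0.1 to 0.32). Kif5b was likewise called in polysome-associated mRNA (0.33, adjusted p = 0.199, edgeR), lost without experiment 1 (0.639) or 3 (0.535), and had 0.19 in total mRNA, called with the replicate block (adjusted p = 0.171, edgeR). Borcs5 was lower by −0.55 (SE 0.26, adjusted p = 0.126, edgeR) in polysome-associated mRNA, lost without experiment 1 (0.479) or 3 (0.524), and had −0.34 in total mRNA, called with the replicate block (−0.37, adjusted p = 0.0825, edgeR). Under library totals alone, with a median of all genes shifted by −0.3 and −0.29, the counts became 4 higher and 3 lower in total and 3 higher and 2 lower in polysome-associated mRNA, and Arl8b in total mRNA flipped to −0.19. Kif1b was then not called in either RNA type (0.1 and 0.26), nor were Arl8b (0.14) and Kif5b (0.04) in polysome-associated mRNA. Over all genes, the calls went from 3724 higher and 3777 lower to 2220 and 6182 in total mRNA and from 3202 and 3344 to 2009 and 5428 in polysome-associated mRNA. Arl8a, Fyco1 and Dync1h1 stayed called higher.

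The third comparison asked whether the level of an mRNA on heavy polysomes, relative to its total level and to the average gene, changed with treatment. Such a change in translation efficiency is a treatment difference that is unequal in the 2 RNA types, and it was tested by that interaction term in a model of all 18 libraries, with a fold of at least 1.2 beside the adjusted p. No gene of the list was called between LPS and control, and 0% of all genes were called higher and 0% lower. The study used another method, anota2seq, with the same adjusted p and fold. It reported changed translation efficiency with LPS for a subset of mRNAs, nearly all of it reversed with torin1. Over all genes, 44 had an unadjusted p under 0.05 in edgeR's quasi-likelihood test, DESeq2 called 1 gene, the replicate block 0, and partial variance, a regression of polysome-associated on total mRNA, 10. Between LPS with torin1 and LPS, again 0 of the 10 genes and 0% of all genes in either direction were called, with 110 genes at an unadjusted p under 0.05, 7 called by DESeq2, 21 by partial variance and 25 with the replicate block. The 10 genes lay between −0.13 (Plekhm2) and 0.21 (Fyco1, 95% interval −0.17 to 0.59) with LPS. Within the experiments Fyco1 had 0.13, 0.3 and 0.2, and with the replicate block its interval was −0.07 to 0.48. With torin1 they lay between −0.33 (Plekhm1, −0.92 to 0.25) and 0.16 (Kif5b, −0.36 to 0.67), and both ends changed sign under partial variance (0.4 for Plekhm1 and −0.09 for Kif5b). The main model did not pair the 2 libraries of a lysate. With the replicate block, here a term for each lysate, 164 genes with LPS and 303 with torin1 had an unadjusted p under 0.05 (edgeR). Without any change, a level of 0.05 would give more of the 11243 genes than either model did, so both tests were cautious. That no gene of the list was called does not show that translation efficiency was the same. Each library had its own scaling, so a shift shared by all mRNAs would not be seen by this test.

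Polysome-associated and total mRNA were also compared over the treatments. On average, 5 genes were called higher in polysome-associated than in total mRNA and 5 lower, while 41.7% of all genes were called higher and 38.9% lower, so that the split of the 10 genes was near that of all genes. The higher ones were Borcs5 (1.07 on the log2 scale, SE 0.15, adjusted p = 8.69e-06, edgeR), Plekhm1 (0.95, SE 0.11, adjusted p = 2.45e-06), Plekhm2 (0.81, SE 0.1, adjusted p = 4.25e-06), Arl8a (0.66, SE 0.07, adjusted p = 5.14e-07) and Rilp (0.38, SE 0.15, adjusted p = 0.0364). The lower ones were Dync1h1 (−1.02, SE 0.13, adjusted p = 4.29e-06, edgeR), Fyco1 (−0.9, SE 0.07, adjusted p = 6.28e-08), Kif5b (−0.81, SE 0.1, adjusted p = 2.79e-06), Kif1b (−0.69, SE 0.09, adjusted p = 4.64e-06) and Arl8b (−0.37, SE 0.09, adjusted p = 0.00164). The 3 motor heavy chains were thus all on the lower side. The Arl8 paralogues lay on opposite sides, as did the Rab7 adaptors Plekhm1 and Rilp against Fyco1. In single lysates, Borcs5 was higher on polysomes by 0.39 to 1.33 and Plekhm1 by 0.51 to 1.44, and Dync1h1 was lower in all 9, from −1.09 to −0.8. Arl8b was lower in 8 of the 9 lysates, with 0.02 in experiment 3 of LPS and torin1. All 10 calls held at an adjusted p of 0.05 and under every scaling, with the replicate block and without any one of the experiments. Both kinds of library are scaled to their own total, so these values rank genes against the average gene and do not give the share of molecules on ribosomes.

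**Figure D4:**
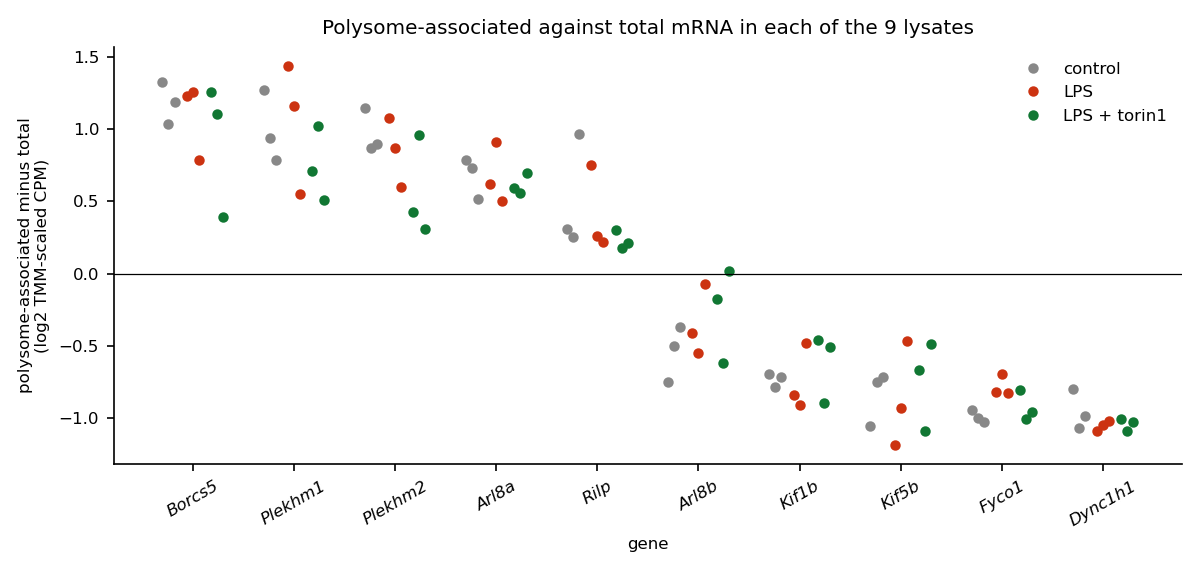
Polysome-associated minus total mRNA (difference of log2 TMM-scaled CPM) in each of the 9 lysates, by gene and coloured by treatment, with genes ordered by their mean over the 9 lysates. The 5 genes from Borcs5 to Rilp lie above 0 in every lysate and the 3 motor heavy chains and Fyco1 below 0 in every lysate, while Arl8b crosses 0 in 1 lysate.

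Around these genes, 9 lists of partner genes were examined: the other BORC subunits, other Arl8 effectors, other kinesins, other dynein subunits, dynactin and dynein cofactors, Rab7 with its regulators and adaptors, JIP scaffolds with the TRPML1 channel, proteins of membrane contacts and tubule reformation, and proteins of the microtubule track. Of their 99 genes, 87 were in the table. With LPS, 24 of the 87 were called higher and 26 lower in total mRNA, and 20 higher and 16 lower in polysome-associated mRNA. With torin1 and LPS against LPS, 39 were called higher and 13 lower in total mRNA, and 30 higher and 5 lower in polysome-associated mRNA, with a median of 0.14 and 0.15 beside 0 over all genes. The shares of all genes called higher and lower with LPS were 32.2% and 34.3% in total mRNA and 26.4% and 28.7% in polysome-associated mRNA. With torin1 and LPS against LPS they were 27.3% and 26.4%, and 20.3% and 18.2%.

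With LPS, no list moved as one. The counts below stand beside 32.2% of all genes called higher and 34.3% lower in total mRNA, and 26.4% and 28.7% in polysome-associated mRNA. Of the 7 other BORC subunits, 0 were called higher and 3 lower in total mRNA. On polysomes Snapin alone was called, with a log2 fold change of −0.46 (SE 0.15, adjusted p = 0.0416, edgeR). Rufy1, an Arl8 effector on endosomes, had −0.57 (SE 0.14, adjusted p = 0.0115, edgeR). Of 13 other kinesin genes, 1 rose and 4 fell in polysome-associated mRNA. The kinesin light chain Klc4 had −1.54 (SE 0.24, adjusted p = 0.000821, edgeR), and Kif3b, a subunit of the heterotrimeric kinesin, had 0.44 (SE 0.17, adjusted p = 0.0675, edgeR), a rise that went to 0.09 and was not called under library totals alone. Of 17 dynactin and cofactor genes, 7 rose and 1 fell in polysome-associated mRNA. The cofactor Ndel1 had 0.94 (SE 0.13, adjusted p = 0.000286, edgeR) while its paralogue Nde1 had −0.67 (SE 0.15, adjusted p = 0.00564, edgeR). The dynein intermediate chain Dync1i2 had 0.88 (SE 0.16, adjusted p = 0.00195, edgeR) and the light chain Dynll2 −1.05 (SE 0.29, adjusted p = 0.0177, edgeR).

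The largest value among the named partners was that of Rilpl2, a relative of Rilp, with 1.82 (SE 0.19, adjusted p = 5.46e-05, edgeR) in polysome-associated and 2.05 (SE 0.14, adjusted p = 2.55e-06, edgeR) in total mRNA, opposite to the fall of Rilp. Osbpl1a, a sterol-sensing Rab7 effector that acts with Rilp, had −0.57 (SE 0.24, adjusted p = 0.0954, edgeR) in polysome-associated mRNA. Spag9, the scaffold JIP4 that recruits dynein to lysosomes, had 0.45 (SE 0.21, adjusted p = 0.133, edgeR), which went to 0.09 and was not called under library totals alone. Pip5k1a, a kinase that makes the lipid PI(4,5)P2, had 1.23 (SE 0.13, adjusted p = 6.69e-05, edgeR). Of the microtubule-binding proteins, Mapre2 had 1.07 (SE 0.15, adjusted p = 0.000432, edgeR) and Stmn1, a destabiliser of microtubules, had −0.67 (SE 0.15, adjusted p = 0.00709, edgeR). Each of these named partners moved the same way in polysome-associated mRNA of all 3 experiments, as the rule for naming them required.

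With torin1 and LPS against LPS, the kinesin list had 11 of 13 genes called higher and 0 lower in total mRNA, with a median of 0.47. In polysome-associated mRNA it had 9 higher and 0 lower, with a median of 0.49. The counts of this and the other lists stand beside 27.3% of all genes called higher and 26.4% lower in total mRNA. In polysome-associated mRNA these shares were 20.3% and 18.2%. Klc4 was higher by 0.99 (SE 0.21, adjusted p = 0.0065, edgeR) in total and 0.52 (SE 0.24, adjusted p = 0.169, edgeR) in polysome-associated mRNA, and Kif3b by 0.39 in both (adjusted p = 0.0112 and 0.143, edgeR). Of the kinesins among the 10 genes, Kif5b was not called higher in this comparison, and Kif1b was called higher only in some of the alternatives, the replicate block among them. Of 6 genes of the JIP and TRPML1 list, 4 were called higher and 0 lower in both RNA types, among them Spag9 with 0.68 (SE 0.21, adjusted p = 0.0591, edgeR) in polysome-associated mRNA. Of the 4 other Arl8 effectors, 3 were called higher in both RNA types, and Rufy1 was not (0.17 in polysome-associated mRNA, adjusted p = 0.458, edgeR). The dynein list had 1 gene called higher and 3 lower of 11 in total mRNA and 0 higher and 1 lower in polysome-associated mRNA, with a median of −0.07 and −0.16, beside the rise of the member Dync1h1. Among the other BORC subunits, Snapin was higher by 0.92 (SE 0.15, adjusted p = 0.00437, edgeR) in polysome-associated mRNA, while the median of the 7 was −0.25. Of the 17 dynactin and cofactor genes, 3 were called higher and 1 lower, of the 11 Rab7 genes 4 and 1, of the 10 contact and reformation genes 3 and 1, and of the 8 track genes 3 and 0, all in polysome-associated mRNA. These are descriptions of lists chosen with the results known, and whether one list differed from another was not tested.

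**Figure D5:**
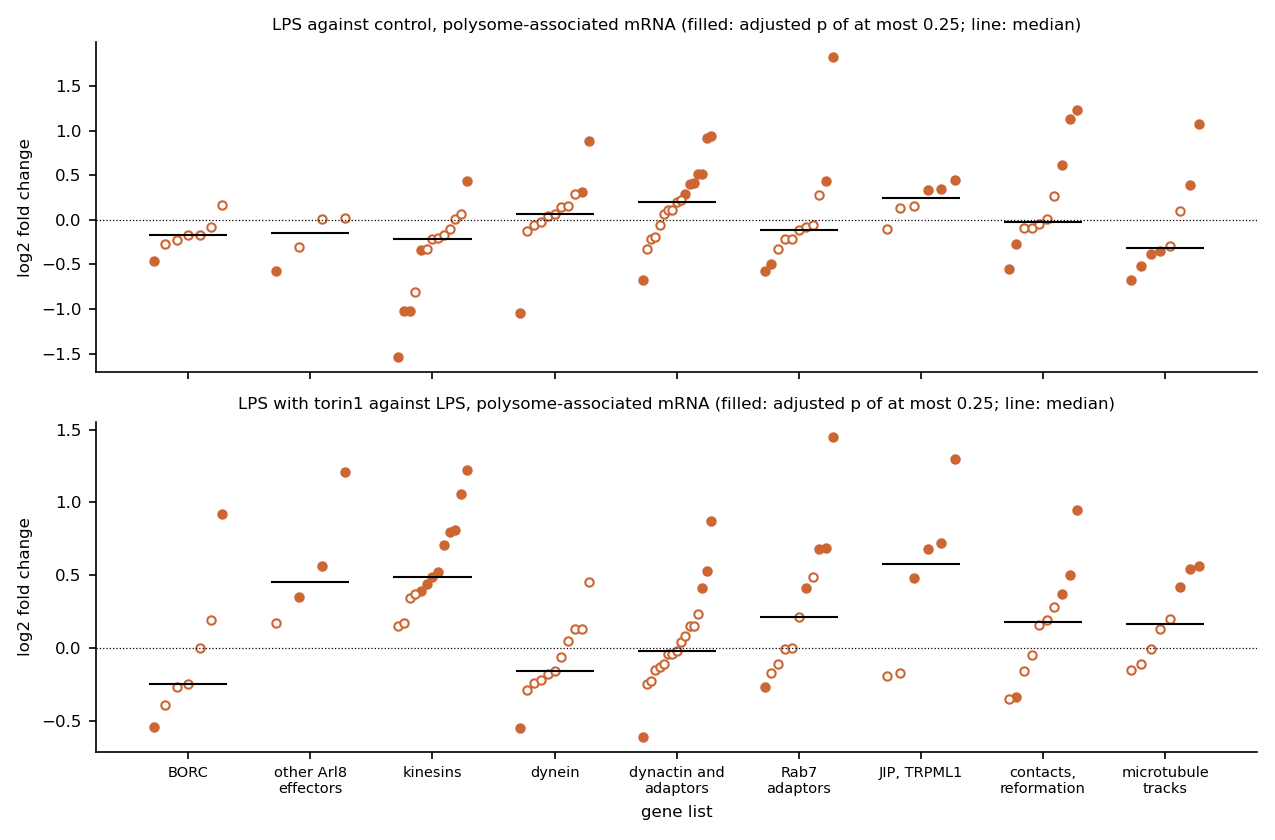
Log2 fold changes in polysome-associated mRNA of the 87 partner genes by list, LPS against control above and LPS with torin1 against LPS below. Each point is a gene, filled where its adjusted p was at most 0.25, and lines are list medians. In the lower panel the 13 kinesins all lie above 0 with a median of 0.49, while the dynein subunits centre on −0.16.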

How the data were processed

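Total and polysome-associated mRNA of RAW264.7 cells was sequenced in 18 libraries, 3 per treatment and RNA type. The authors depleted ribosomal RNA, prepared strand-marking libraries, ran the nextflow RNAseq pipeline with its defaults (Hisat2 on GRCm38, then featureCounts with the Ensembl annotation) and kept protein-coding genes without a 0 in any library. The deposited values are raw counts per gene, not normalized. The version of Hisat2 and the strand setting are not given in the sources used here.

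R 4.3.3, edgeR 4.0.16, limma 3.58.1 and DESeq2 1.42.0 were used. Per RNA type, 9 libraries entered one model with TMM factors, and all 18 libraries in 6 groups gave translation efficiency and the comparison of polysome-associated with total mRNA. The study's anota2seq was not used here, and its partial variance idea (polysome-associated regressed on total log2 CPM, pseudocount 0.5, slopes from −1 to 2) was an alternative. Library totals of 27800983 to 47725557 counts limit Rilp most. Replicates are separate experiments with 1 cell line.

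The genes, lists and tests were chosen with earlier results of these data known. All 10 genes are named in every comparison except translation efficiency, where the ends of the range are. From each partner list, the riser and the faller with the largest polysome-associated log2 fold change with LPS are named, among genes with a mean of at least 100 counts, called in the same direction in both RNA types, that moved the same way in polysome-associated mRNA of all 3 experiments. Positions come from GENCODE M21 on GRCm38.

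The experiment number pairs the libraries, because each experiment held all treatments. Deviations from the group means correlated across genes between libraries of one number, with a mean r of 0.337 in total mRNA (0.149 to 0.426 over 9 pairs). In polysome-associated mRNA the mean was 0.29 (−0.092 to 0.74). Between numbers the means were −0.167 and −0.143. The deviations of a group sum to 0, so these negative means follow from the first and are not a separate reference. The methods name no block, so it was an alternative. For translation efficiency and for polysome-associated against total mRNA, the replicate block was a term for each lysate instead of each experiment. Also tried were the Wald test and, separately, the size factors of DESeq2, an adjusted p of 0.05, at least 10 counts in every library, each experiment left out, fewer or more libraries in the model, and library totals alone, chosen after seeing the data. Scripts were tested on simulated counts.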

Additional observations from a re-analysis of the deposited data

How the results depend on the processing

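Over the 24 genes named, 1091 values of single genes were recomputed under an alternative. Of these, 972 kept their direction and their side of the threshold, 73 lost and 23 gained a call, and 23 changed sign, of which 0 were called both before and after and 19 in neither. In translation efficiency, none of the 10 genes was called under any alternative run, and all members tested were called in the polysome-associated against total comparison under every alternative. Most genes were called in that comparison, from 7488 of 11243 at an adjusted p of 0.05 to 9737 with the replicate block. The cause of the other changes was not tested.

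At an adjusted p of at most 0.05, 2 of the 10 genes were called between LPS with torin1 and LPS in polysome-associated mRNA and 4 between LPS with torin1 and control. With an experiment left out, these counts ranged from 2 to 7 and from 3 to 7. In the other comparisons they ranged from 7 to 8 and from 5 to 8 with LPS in total and polysome-associated mRNA, from 6 to 8 with torin1 against LPS in total mRNA, and from 5 to 7 with torin1 against control in total mRNA. The replicate block moved no count of members by over 1.5 times. It gave 9 and 8 genes with LPS, 9 and 7 with torin1 against LPS, and 8 and 8 with torin1 against control, in total and polysome-associated mRNA, and 10 for polysome-associated against total mRNA. Under the block the calls over all 11243 genes rose too, to 8223 and 7062 with LPS, 7196 and 5587 with torin1 against LPS, and 8266 and 7451 with torin1 against control. For polysome-associated against total mRNA they rose from 9059 to 9737. Beside the calls given with the results above (Kif1b, Kif5b, Borcs5 and Rilp), it changed no other call of the 10 genes, and it changed the sign of Borcs5 with torin1 against LPS in total mRNA to −0.01.

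Borcs5 had −0.01 there with DESeq2's Wald test and size factors too. Under library totals alone, Plekhm1 had −0.04 in total and −0.27 in polysome-associated mRNA between LPS with torin1 and control, Arl8b −0.19 and Kif5b −0.11 in total mRNA and Plekhm2 −0.12 in polysome-associated mRNA. With LPS, Plekhm2 had −0.29 in total mRNA and Kif1b −0.12 and −0.11 in the 2 RNA types. In one model of 18 libraries Plekhm1 had −0.01 in polysome-associated mRNA between LPS with torin1 and control. Partial variance gave 0.4 for Plekhm1 and −0.09 for Kif5b in translation efficiency with torin1.

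With an experiment left out, these values crossed 0: Arl8b with LPS in polysome-associated mRNA, −0.13 to 0.11, Borcs5 with torin1 against LPS in total mRNA, −0.11 to 0.09, and Plekhm2 with LPS, −0.09 to 0.23 in total and −0.29 to 0.09 in polysome-associated mRNA. Against control, cells with LPS and torin1 had −0.06 to 0.18 for Plekhm1 and −0.11 to 0.41 for Plekhm2 in polysome-associated mRNA. Kif5b in translation efficiency with torin1 had −0.02 to 0.28.

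The background counts over all genes moved as well. With torin1 against LPS they fell from 4322 to 1557 at an adjusted p of 0.05, 1782 without experiment 1 and 1187 without experiment 3 in polysome-associated mRNA, and from 6038 to 3279 at 0.05 and 3959 without experiment 3 in total mRNA. In polysome-associated mRNA they fell from 6191 to 3654 at 0.05 and 3901 without experiment 1 with LPS, and from 6546 to 3950 at 0.05 and 4156 without experiment 3 with torin1 against control. Without experiment 2 the polysome-associated counts rose instead. They were then 7251 with LPS, 5182 with torin1 against LPS and 7627 with torin1 against control. In translation efficiency, 0 genes became 10 with LPS and 21 with torin1 under partial variance, 25 with torin1 under the replicate block and 7 with torin1 under DESeq2. Rilp has under 10 counts in 1 library, so the filter on low counts removed it. Depth limits Rilp and Borcs5 most.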
